A study of Ambystoma mexicanum with 12 samples.

Results

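Which genes the blastema mesenchyme of the axolotl forelimb transcribes most was read from 6 libraries of animals (Ambystoma mexicanum, albino strain, right limbs) that received only the solvent DMSO. These 6 libraries were taken by their treatment label out of the 12 of the series, whose other 6 came from animals kept in 25 nM Am580, an agonist of retinoic acid receptor alpha, and no Am580 library entered a level given here. Forelimbs were amputated through the zeugopod (the forearm) and left for 24 h, the animals were held for 5 days in DMSO added to their 40% Holtfreter's solution, and the blastemas were collected 24 h later, on day 7. The epidermis was removed by hand, each library was made by poly-A selection from the RNA of 1 blastema, and the 6 animals were those sequenced among DMSO animals whose left limbs regrew without duplication. The animals were large juveniles whose age is not given in the labels, and DMSO was present in all 6, so that no library is of untreated tissue.

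A blastema is the mound of dividing cells that gathers under the wound epidermis of an amputated salamander limb and rebuilds what was lost. Its mesenchyme comes for the most part from connective tissue cells of the stump, such as fibroblasts, which lose their mature traits, remodel the matrix around them and carry the memory of position along the limb. Muscle progenitors, Schwann cells, vessels and blood cells enter as well, macrophages are required for regeneration in the axolotl, and osteoclasts resorb the cut skeleton. Along the limb, HOXA9, HOXA11 and HOXA13 mark successively more distal levels, and TBX5 marks forelimb against hindlimb.

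Levels were taken from the read pairs counted on the exons of 36917 loci of the authors' assembly and are given as CPM, counts scaled by library size and TMM factor, as mean ± SD over the 6 libraries. Where genes are compared with each other, CPM were divided by the kilobases of exon of the locus (CPM per kb), because a longer transcript gives more reads. The libraries held 27226012 to 40794002 counts, so that a count of 0, which allows up to 3 counts, stands for at most 0.0740 to 0.109 CPM, a limit that covers counting error only. At least 10 counts in every library were found for 22070 loci (59.8%), and they had a median of 7.58 CPM, or 3.257 CPM per kb. The 10 highest loci took 8.63 to 10.4% of a library's counts, correlations of log2 CPM between libraries lay between 0.959 and 0.980 across loci, which are not independent of each other, and no pair of libraries was identical. Names come from the reference gene set through the assembly, which cuts many of them to 1 word and leaves 14011 loci, with 18.9% of the counts on average, without a name.

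Single libraries stood apart in a few gene groups. Replicate 1 held 642 CPM at the highest locus named keratin (MSTRG.17852), where the other 5 libraries held 17.05, 4.46, 6.83, 15.6 and 17.6 CPM. All loci named keratin took 0.121% of the counts of replicate 1, and a median of 0.00381% in the others. The files do not give which keratin a locus with this name holds, and 1 of the 5 such loci, MSTRG.11908, was not highest in replicate 1. Replicate 3 held 0.161% of its counts in cartilage genes, where the median of the others was 0.0418%, and 0.0221% in Schwann cell genes, where the others held 0.0285 to 0.0338%. Means of several lists and loci that turn on either library are given below also without it, and whether the dissection set these values was not tested.

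The blastema mesenchyme spread its transcripts over many genes: 20186 loci had a mean of at least 1 CPM, 1491 of at least 100 CPM and 141 of at least 1000 CPM. The 414 highest loci held 50% of all CPM, and the 6155 highest held 90%. The 20 loci with the highest CPM took 14.2% of the total. Matrix, muscle and translation were all among them. COL3A1, the fibrillar collagen of loose connective tissue, stood at rank 3 with 8585 ± 2410.02 CPM, desmin (DES), the intermediate filament of muscle cells, at rank 14 with 5341 ± 1521 CPM, and vimentin (VIM), that of mesenchymal cells, at rank 17 with 4435 ± 396 CPM. The elongation factor locus with EEF1A1, which also carries LOC102829041, had 6902 ± 1091 CPM, and EEF2, which moves the ribosome along, had 4654 ± 585 CPM.

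COL3A1 ranged from 6550.3 CPM in replicate 2 to 13019.6 CPM in replicate 3, with a median of 7969 CPM. Its locus lies on scaffold AMEXG_0030002196 of AmexG_v3.0.0, positions 5379035 to 5587968, minus strand, with 8612 bases of exon. Vimentin varied far less, from 3843 CPM in replicate 1 to 4835 CPM in replicate 6, with a median of 4491 CPM. Desmin was high in replicate 1 and low in replicates 3 and 5, from 3969 CPM in replicate 5 to 8083 CPM in replicate 1, with a median of 5035 CPM.

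Other loci of this highest group carry a single word of a longer name, so that their product is not fixed by the files. The locus named cytoplasmic had 10615 ± 866 CPM, that named matrix 7889.6 ± 1581 CPM, that named collagen 7736 ± 1665 CPM, that named fructose-bisphosphate 5539.5 ± 2156 CPM, that named glyceraldehyde 4362 ± 1061 CPM, and the higher of those named ferritin 5350.1 ± 528 CPM. The locus named collagen ranged from 5850.1 CPM in replicate 1 to 10405 CPM in replicate 3, with a median of 7511 CPM, with the same highest and lowest libraries as the sum of the fibrillar collagens. Just below the first 20 stood a locus named collagenase with 3778 ± 1842 CPM, named here after its values were seen, which reached 7259 CPM in replicate 3 and lay between 2235 and 4036 CPM in the others. LOC108789813, at rank 4 by CPM and rank 2 by CPM per kb, had 8489 ± 2121 CPM and was highest in replicate 5 (12461 CPM). It lies on the same scaffold as CTSK, AMEXG_0030006019, and its product is not annotated here.

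Of the 20 highest loci by CPM, 3 held no reference transcript, and of the 20 highest by CPM per kb, 7 held none, while 5 loci were in both lists. The first by CPM was such a locus, MSTRG.4113, with 21084 ± 3585 CPM, ranging from 16669.6 CPM in replicate 6 to 25677 CPM in replicate 1, with a median of 20806 CPM. It is unspliced and lies in an unbroken stretch of 16086 bases covered by 6 unnamed loci on both strands of scaffold AMEXG_0030000807, positions 1032838 to 1048923. The minus strand of the stretch took 2.14 to 3.05% of a library's counts and the plus strand 0.0571 to 0.152%. By CPM per kb the first was MSTRG.11214, also unnamed, with 4889 ± 614 CPM per kb. Among the named loci of the second list, RPS2, a protein of the small ribosomal subunit, had 2187 ± 269 CPM per kb and CKB, the brain-type creatine kinase, 1744 ± 299.8 CPM per kb.

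**Figure D1:**
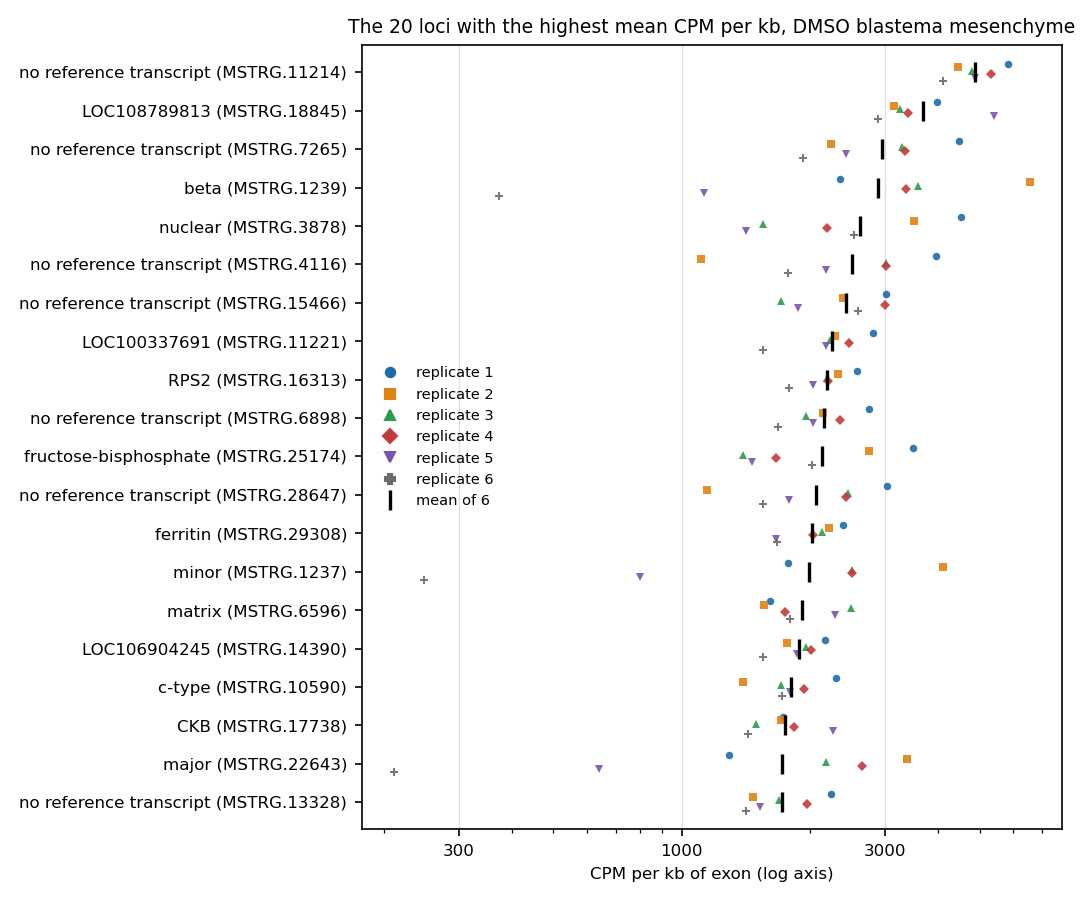
The 20 loci with the highest mean CPM per kb of exon (log axis), each with its 6 DMSO libraries as points and their mean as a bar. The loci named beta, minor and major spread widely, with replicate 2 highest and replicate 6 lowest, whereas RPS2 and LOC106904245 stayed close together.

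By gene list, ribosomal proteins and translation factors took 5.39 ± 0.516% of the counts (SD, n = 6), sarcomere and muscle metabolism genes 2.29 ± 0.652% and cytoskeleton genes 1.3996 ± 0.108%. Matrix glycoproteins followed with 1.19 ± 0.221% and fibrillar collagens with 1.13 ± 0.305%. Myeloid genes took 0.418 ± 0.0586%, osteoclast genes 0.334 ± 0.06304%, limb patterning factors 0.0983 ± 0.0166%, cartilage genes 0.0623 ± 0.0488% and HOX genes 0.0153 ± 0.00161%. These shares depend on the number of genes in a list and on how many of them the assembly names: of 733 listed symbols, 485 were counted as carried. A locus with several listed names counts for 1 of them, so that HOXA7, HOXA10 and HOXA11, which share a locus with HOXA3, are not in this count. COL1A1, COL1A2, COL2A1, MYOD1, SHH, FGF8 and FGF10 were among the symbols carried by none and were not analysed here. In a bulk sample, fewer cells of a type and less RNA per cell cannot be told apart.

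**Figure D2:**
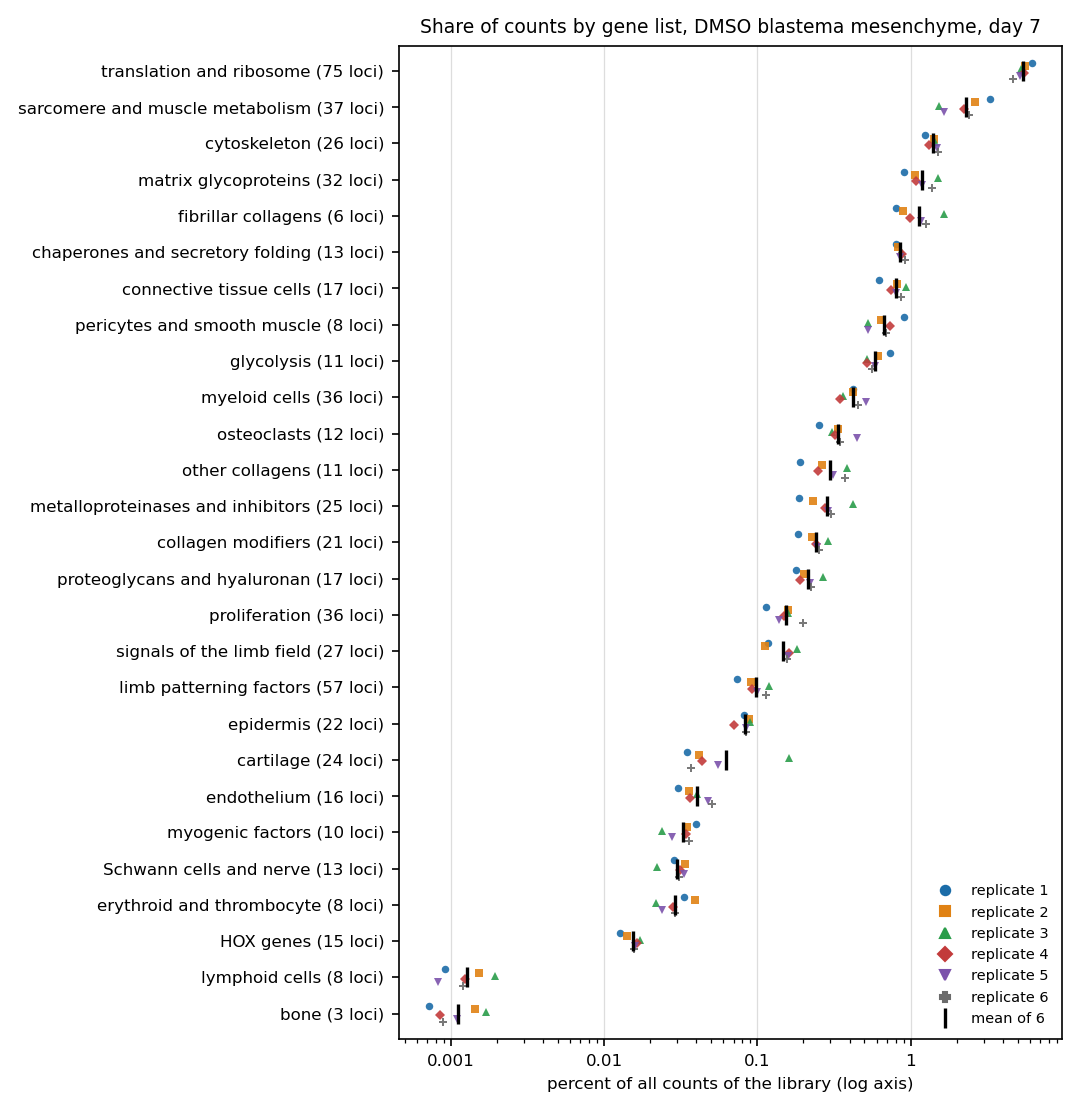
Percent of all counts of a library (log axis) in each of the 27 gene lists, ordered by the mean, with the number of loci in brackets. Points are the 6 DMSO libraries and bars their means. Cartilage in replicate 3 lay apart from its other 5 points, and in 19 of the 27 lists the highest library held at least 1.5 times the share of the lowest.

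Extracellular matrix genes were among the highest single loci of the mesenchyme. All 5 fibrillar collagen symbols carried by the assembly had a locus with reads. Of the 6 loci, 3 exceeded 100 CPM (6.75% of all loci that passed the count minimum). Per kb, COL3A1 had 997 ± 279.8 CPM per kb, COL5A2, which sets the width of collagen fibrils, 195 ± 31.4 CPM per kb, and COL11A1, best known from cartilage, 103 ± 32.8 CPM per kb at its higher locus. COL27A1 had 0.585 ± 0.0883 CPM per kb, below the median of all loci that passed the count minimum. This is the reference name, and the paper matched a transcript of that name to COL5A3. Among the other collagens, COL12A1, which lies on the surface of fibrils, had 124 ± 37.3 CPM per kb and COL6A2, a chain of the beaded filaments around cells, 123 ± 19.7 CPM per kb. COL12A1 ranged from 937 CPM in replicate 1 to 2174 CPM in replicate 3, with a median of 1541 CPM.

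Matrix glycoproteins stood high as a list, with 15 of 32 loci at 100 CPM or more, a level reached by 6.75% of all loci that passed the count minimum. Periostin (POSTN), a matrix protein of wounds and of growing connective tissue, led with 579 ± 82.8 CPM per kb and ranged from 1870.1 CPM in replicate 1 to 2651 CPM in replicate 3, with a median of 2262 CPM. SPARC, a collagen-binding protein of tissues under repair, had 468 ± 38.2 CPM per kb and was the steadiest of the leading members, ranging from 1398 CPM in replicate 5 to 1765 CPM in replicate 3, with a median of 1571 CPM. MFAP2, a microfibril protein, had 275 ± 44.97 CPM per kb and TGFBI, a protein induced by TGF-beta, 238 ± 57.7 CPM per kb. Fibronectin (FN1) and tenascin C (TNC) are both laid down early in salamander limb regeneration and form a matrix in which muscle cells and fibroblasts move. FN1 had 209 ± 51.8 CPM per kb and TNC 151 ± 28.5 CPM per kb. Within each blastema TNC was lower than FN1, in 6 of 6 libraries, by a mean log2 ratio of -0.45 ± 0.25 (exact sign-flip permutation test, two-sided, p = 0.03125, the smallest that 6 libraries allow, Benjamini-Hochberg adjusted p = 0.0344 over the 11 gene pairs tested).

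Proteoglycans were led by BGN (biglycan) at 191 ± 36.8 CPM per kb, the syndecan SDC2 at 101 ± 41.2 CPM per kb and decorin (DCN) at 69.7 ± 8.99 CPM per kb. SDC2 reached 539.6 CPM in replicate 3 and lay between 207 and 322 CPM in the other libraries, with a mean of 302 CPM and of 255 CPM without replicate 3. HAS1, which makes hyaluronan, had 1.09 CPM in replicate 1 and 23.6, 9.31, 31.1, 11.3 and 25.5 CPM in replicates 2 to 6.

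Of the 21 loci of the collagen modifiers, which build and cross-link collagen, 17 passed the count minimum (59.8% of all loci) and 1 had no count in any library. P4HB, a subunit of the prolyl hydroxylase and a disulfide isomerase, had 390.04 ± 36.5 CPM per kb, the collagen chaperone SERPINH1 60.03 ± 8.69 CPM per kb and the cross-linking enzyme LOXL2 35.1 ± 7.94 CPM per kb. Of the 17 collagen modifier loci that passed the count minimum, 14 were highest in replicate 3, against 16.4% of all loci that passed.

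Of the matrix-degrading enzymes, the membrane-bound metalloproteinase MMP14 stood out with 288 ± 103 CPM per kb, ranging from 919.9 CPM in replicate 1 to 2362 CPM in replicate 3, with a median of 1379 CPM. MMP2, the gelatinase that MMP14 activates together with TIMP2, had 69.3 ± 14.9 CPM per kb, and the inhibitor TIMP2 had 97.5 ± 31.2 CPM per kb. MMP14 exceeded TIMP2 in 6 of 6 libraries by a mean log2 ratio of 1.56 ± 0.15 (exact sign-flip permutation test, adjusted p = 0.0344). The 2 abundant loci named only collagenase were higher than any of these, with 844 ± 411 and 880.3 ± 236 CPM per kb, of which the first was highest in replicate 3 and the second lowest there. Without replicate 3, MMP14 averaged 1226 CPM, against 1416 CPM with it. MMP19 had 33.2 ± 3.85 CPM per kb and MMP11 14.4 ± 3.57 CPM per kb.

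The connective tissue nature of the sample was checked on its markers. Vimentin had 1560.5 ± 139 CPM per kb, FSTL1, a secreted glycoprotein of mesenchyme, 617 ± 107 CPM per kb and the receptors PDGFRA and PDGFRB 10.6 ± 1.34 and 8.84 ± 2.11 CPM per kb. PRRX1, the homeobox gene by which limb connective tissue progenitors are recognised, had 22.96 ± 5.86 CPM per kb and TWIST1, a factor of mesenchymal cells, 23.6 ± 1.797 CPM per kb. All 6 libraries held each of these, while THY1 and TCF21, other markers of fibroblasts, were at or near 0, with means of 0.00411 and 0 CPM. The tendon gene SCX had 8.82 ± 1.66 CPM per kb and TNMD, a marker of mature tendon, 4.74 ± 1.96 CPM per kb. FAP, a surface protease of activated fibroblasts, had 27.97 and 38.3 CPM in replicates 1 and 5 and 85.3, 118, 114 and 106 CPM in replicates 2, 3, 4 and 6.

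Patterning factors were expressed at a much lower level than matrix genes. Of 57 limb patterning loci, 36 passed the count minimum, as did 59.8% of all loci. These 36 had a median of 2.19 CPM per kb, against 14.99 CPM per kb for matrix glycoproteins and 3.257 CPM per kb over all loci that passed. Only SNAI1 and PRRX1 exceeded 100 CPM, a level reached by 6.75% of all loci that passed. SNAI1, a repressor of epithelial genes, led with 125 ± 22.5 CPM per kb. After TWIST1 and PRRX1 came MSX2 with 12.8 ± 3.301 CPM per kb, PRRX2 with 10.2 ± 3.81 CPM per kb and ETV4, a target of FGF signalling, with 7.33 ± 0.4402 CPM per kb. ETV4 was among the steadiest, ranging from 66.8 CPM in replicate 1 to 79.5 CPM in replicate 5, with a median of 75.01 CPM, while PRRX2 was low in replicates 1, 4 and 5 and ranged from 24.1 CPM in replicate 1 to 60.3 CPM in replicate 6, with a median of 43.03 CPM. PRRX1 exceeded PRRX2 in 6 of 6 libraries by a mean log2 ratio of 1.23 ± 0.47 (exact sign-flip permutation test, adjusted p = 0.0344).

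The paralogs MSX1 and MSX2, both known from the undifferentiated mesenchyme of the limb tip, differed widely. MSX1 had 0.843 ± 0.264 CPM and MSX2 45.6 ± 11.8 CPM, and per kb MSX1 was lower in 6 of 6 libraries by a mean log2 ratio of -4.54 ± 0.37 (exact sign-flip permutation test, adjusted p = 0.0344). With a prior of 1 CPM added to each value the mean was -3.57. Whether another unnamed locus holds MSX1 reads was not tested.

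The limb type was read from T-box genes. TBX5, the forelimb gene, had 21.9 ± 3.56 CPM and ranged from 16.99 CPM in replicate 1 to 26.5 CPM in replicate 3, with a median of 21.99 CPM. TBX4, the hindlimb gene, had a mean of 0.224 CPM and at most 0.3501 CPM, did not pass the count minimum and was not tested, and TBX5 exceeded it in every library, by a mean log2 ratio of 4.57 per kb. PITX1, known as a hindlimb factor, had 4.16 ± 1.24 CPM, lowest in replicate 3 (2.01 CPM). TBX2 and TBX3, which act at the anterior and posterior margins of the limb bud, had 9.41 ± 3.36 and 7.67 ± 2.77 CPM. LMX1B, which gives dorsal identity, had 10.1 ± 1.75 CPM and HAND1 7.37 ± 1.95 CPM. The Hedgehog effector GLI3 had 19.8 ± 2.69 CPM and GLI2, at a locus shared with another reference gene, 10.5 ± 2.68 CPM.

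Genes known from the proximal and middle limb segments were also present. SHOX had 20.02 ± 3.69 CPM, ranging from 15.7 CPM in replicate 1 to 26.1 CPM in replicate 6, with a median of 19.4 CPM, and SHOX2 5.55 ± 3.19 CPM, ranging from 1.23 CPM in replicate 4 to 10.3 CPM in replicate 2, with a median of 5.501 CPM. Per kb SHOX2 was lower than SHOX in 5 of 6 libraries, with a mean log2 ratio of -1.14 ± 1.09 (exact sign-flip permutation test, p = 0.0625, adjusted p = 0.0625). With the longest transcript as length in place of the union of exons the ratio was -1.33 (exact sign-flip permutation test, adjusted p = 0.03125), so that this result depends on the length used. MEIS2 had 1.16 ± 0.365 CPM, MEIS3 4.74 ± 1.19 CPM and IRX3 2.63 ± 0.754 CPM. IRX1, IRX2, IRX6, LHX9 and LMX1A were at or near the limit of a count of 0 in the means of their loci, the highest of which was 0.06496 CPM for IRX2.

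HOX genes were carried by 15 loci, of which 5 passed the count minimum, as did 59.8% of all loci. The highest was MSTRG.6439, which carries HOXA3, HOXA7, HOXA10 and HOXA11 in 1 locus on scaffold AMEXG_0030001344, positions 2553456 to 2843435, plus strand, so that its 104 ± 8.61 CPM cannot be divided between them. HOXA9, at positions 2590033 to 2593544 within the same span and on the same strand, had 12.1 ± 1.17 CPM and ranged from 10.4 CPM in replicate 1 to 13.4 CPM in replicate 4, with a median of 12.5 CPM. HOXA13, the gene of the most distal segment, at positions 2531331 to 2534191, had 6.26 ± 1.83 CPM. It reached 9.83 CPM in replicate 3, and the other 5 libraries lay between 4.73 and 6.11 CPM, with a mean of 5.54 CPM. Per kb HOXA13 was lower than HOXA9 in 6 of 6 libraries, by a mean log2 ratio of -0.84 ± 0.37, and lower than the locus with HOXA11 in 6 of 6, by -1.63 ± 0.36 (exact sign-flip permutation tests, adjusted p = 0.0344 each). With the longest transcript as length in place of all exons, the ratio of HOXA13 to the locus with HOXA11 was -2.58 (exact sign-flip permutation test, adjusted p = 0.03125). From the HOXD cluster, the locus with HOXD10, shared with a gene named homeobox, had 25.4 ± 2.97 CPM and HOXD3 3.98 ± 1.07 CPM.

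The other 10 HOX loci were far lower: HOXB2 had 0.331 CPM, HOXA4 0.288 CPM, HOXA2 0.211 CPM and HOXA5 0.204 CPM. HOXC12, HOXC11, HOXB9, HOXA6 and HOXD1 had means of 0.0153 to 0.159 CPM, and HOXB1 had no count in any library. Among the named loci, only those of the HOXA and HOXD clusters passed the count minimum. This does not describe whole clusters, since the list held 38 symbols and those that name none of the 15 loci could not be read. In addition, 7 loci carry the name homeobox, among them the locus with HOXD10, and that name gives no product.

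**Figure D3:**
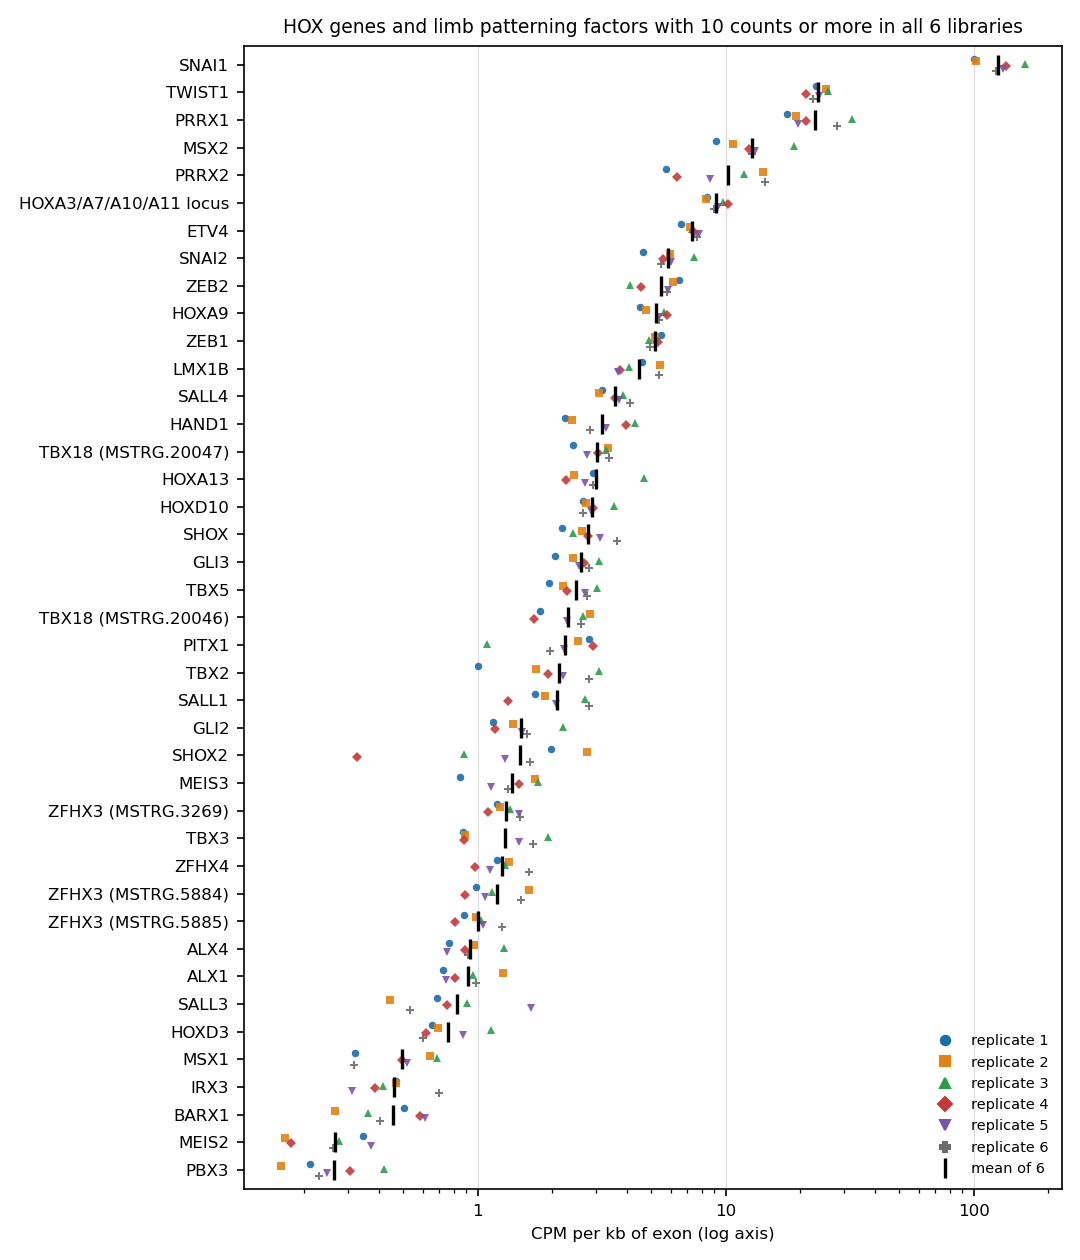
HOX genes and limb patterning factors with at least 10 counts in all 6 libraries, in CPM per kb of exon (log axis). Points are the 6 DMSO libraries and bars their means. SNAI1 stood above the rest, HOXA13 was highest in replicate 3, and SHOX2 in replicate 4 lay far below its other points.

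Among the signals of the limb field, midkine (MDK), a heparin-binding growth factor, was the only one above 100 CPM, with 1031 ± 226 CPM, ranging from 676 CPM in replicate 2 to 1319 CPM in replicate 3, with a median of 1066 CPM. SFRP2, a secreted WNT modulator, and DKK3, of the dickkopf family, had 72.4 ± 14.7 and 74.1 ± 21.2 CPM. TGFB2 had 28.6 ± 7.47 CPM and BMP7 24.7 ± 8.11 CPM. For retinoic acid, the enzyme ALDH1A3 had 31.4 ± 6.79 CPM and ALDH1A2, the main enzyme of the vertebrate limb flank, 4.55 ± 2.398 CPM, and the retinoid X receptors RXRB and RXRA, partners of the retinoic acid receptors, had 49.998 ± 2.62 and 16.1 ± 2.08 CPM. The Hedgehog receptor PTCH1 had 3.94 ± 0.864 CPM and FGF9 2.19 ± 0.514 CPM, while WNT3A and WNT7A were at 0.016002 and 0.0107 CPM. PTN, the relative of midkine, fell into 2 ranges: 1.596 and 1.81 CPM in replicates 2 and 5 and 18.3, 18.3, 31.4 and 22.4 CPM in replicates 1, 3, 4 and 6.

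Macrophage genes were well represented in every blastema. Of 36 myeloid loci, 33 passed the count minimum (59.8% of all loci) and 11 reached 100 CPM (6.75% of all loci that passed). CSF1R, the receptor that macrophages need to live, had 108 ± 13.2 CPM per kb and ranged from 609 CPM in replicate 1 to 870.3 CPM in replicate 5, with a median of 695 CPM. CD68, a lysosomal protein of macrophages, had 142 ± 33.7 CPM per kb, the invariant chain CD74, which loads MHC class II, 110.1 ± 25.6 CPM per kb, the actin-bundling protein LCP1 94.8 ± 21.3 CPM per kb and the integrin beta chain of leukocytes, ITGB2, 85.9 ± 12.6 CPM per kb. The leukocyte phosphatase PTPRC had 23.1 ± 4.02 CPM per kb and the myeloid master factor SPI1 288 ± 26.4 CPM. The scavenger receptor MARCO had 68.1 ± 18.9 CPM, and the oxidase chain CYBB 112 ± 30.3 CPM.

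CSF3R, the growth factor receptor of granulocytes, varied more between libraries than CSF1R, with a coefficient of variation of 57.2%, against 12.2%. It had 34.7 and 20.1 CPM in replicates 3 and 4 and 139, 88.2, 124 and 89.4 CPM in replicates 1, 2, 5 and 6. CSF1R exceeded CSF3R in 6 of 6 libraries by a mean log2 ratio of 3.46 ± 1.09 per kb, and CD74 exceeded PTPRC by 2.24 ± 0.25 (exact sign-flip permutation tests, adjusted p = 0.0344 each). IL1B, the inflammatory cytokine, at the higher of its loci had 164, 57.1, 9.86, 22.6, 86.2 and 24.3 CPM in replicates 1 to 6. The lymphoid list took 0.00127 ± 0.000413% of the counts, led by CD247 with 10.2 ± 4.05 CPM, while LCK and ZAP70, kinases of T cells, had 0.7497 ± 0.208 and 0.426 ± 0.112 CPM and PAX5, a B cell factor, 0.0229 CPM.

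Osteoclasts are the bone-resorbing relatives of macrophages, and their genes were among the higher lists. Of 12 loci, 9 reached 100 CPM (6.75% of all loci that passed the count minimum). ACP5, tartrate-resistant acid phosphatase and the standard osteoclast stain, had 427 ± 73.5 CPM per kb and ranged from 1179 CPM in replicate 1 to 1914 CPM in replicate 5, with a median of 1393 CPM. Its locus lies on scaffold AMEXG_0030009379, positions 1059069 to 1217657, plus strand. The proton pump subunits ATP6V0D2 and TCIRG1, which acidify the resorption pit, had 114 ± 16.2 and 91.7 ± 12.05 CPM per kb, and the surface receptor SIGLEC15 83.3 ± 15.5 CPM per kb. The collagen-cutting protease CTSK had 51.2 ± 9.43 CPM per kb, lower than ACP5 in 6 of 6 libraries by a mean log2 ratio of -3.06 ± 0.26 (exact sign-flip permutation test, adjusted p = 0.0344). A locus named only cathepsin took 0.0566% of the counts on average. Whether that locus or another one holds CTSK reads was not tested. NFATC1, the master factor, had 303 ± 47.1 CPM, and the fusion proteins DCSTAMP and OCSTAMP 101 ± 28.5 and 46.04 ± 3.12 CPM. Of the 11 loci that passed the count minimum, 9 were highest in replicate 5, against 13.8% of all loci that passed.

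**Figure D4:**
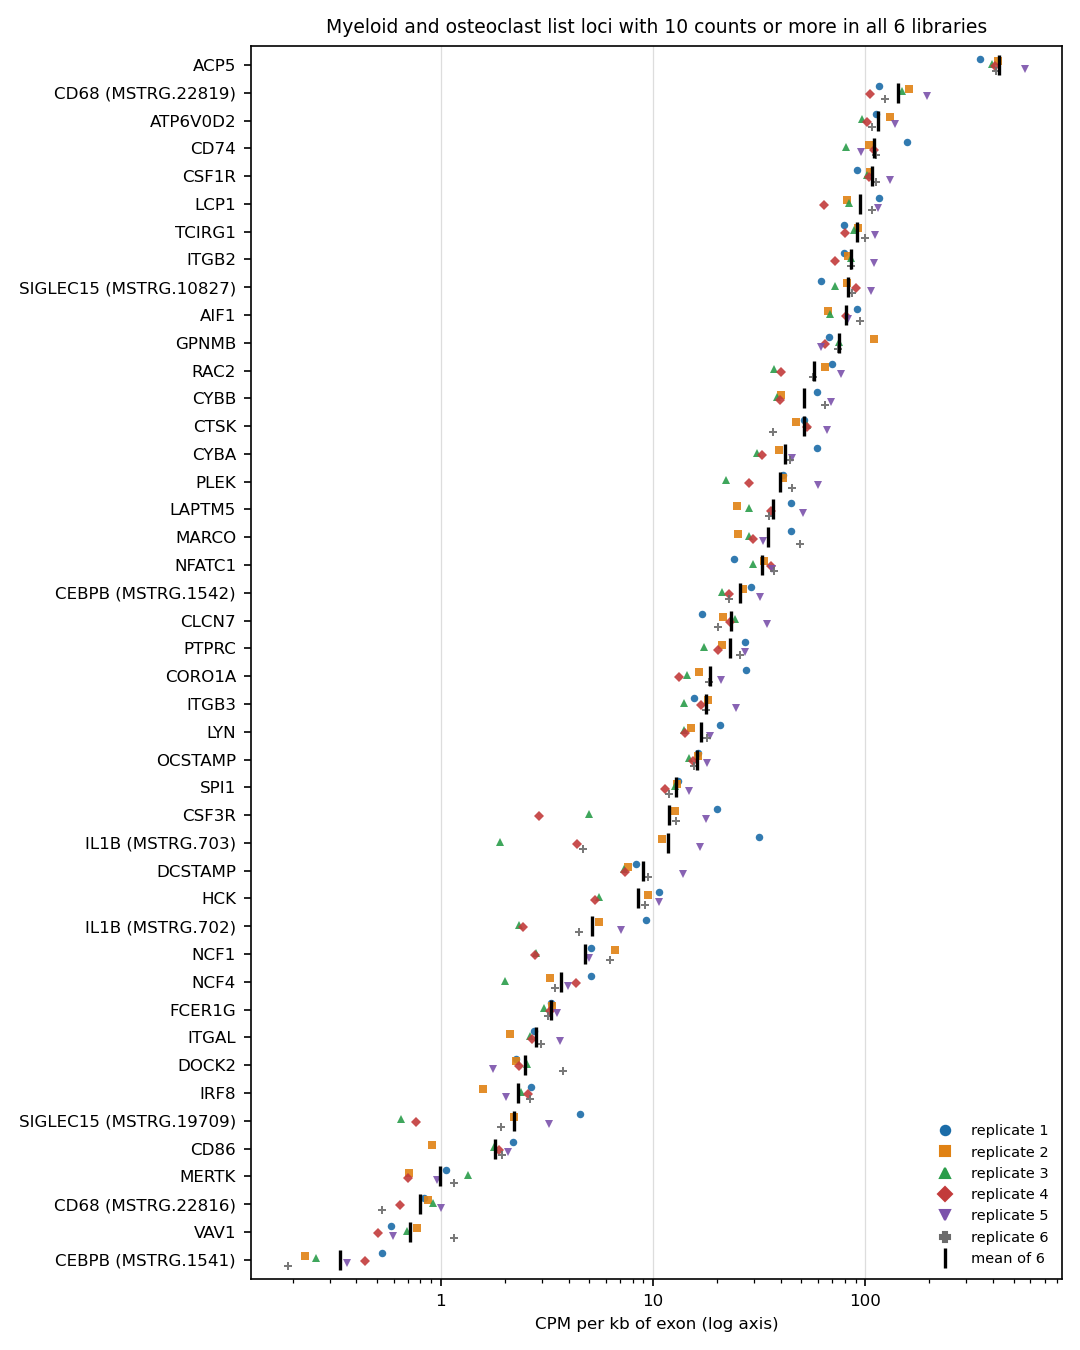
Loci of the myeloid and osteoclast lists with at least 10 counts in all 6 libraries, in CPM per kb of exon (log axis), with the 6 DMSO libraries as points and their means as bars. ACP5 was highest in every library, and CSF3R and IL1B spread most among the more abundant genes.

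Among the lists of cell type markers, muscle genes took the largest share of the counts, and they differed between blastemas. Matrix genes were split over several lists, so that this order does not rank muscle above matrix. Of 37 loci, 21 reached 100 CPM (6.75% of all loci that passed the count minimum). Among the 500 highest loci, which make up 2.27% of the loci that passed, stood 16 muscle loci. CKM, the muscle creatine kinase, had 1534 ± 815 CPM per kb, the fast myosin light chain MYLPF 1328 ± 649, DES 1290.4 ± 368 at its longer locus and the fast troponin TNNI2 800.2 ± 293 CPM per kb. CKM ranged from 1456 CPM in replicate 3 to 5913 CPM in replicate 1, with a median of 2948 CPM. The slow fibre genes TNNT1 and MYL3, picked after their values were seen, were lower, with 242 ± 94.99 and 275 ± 121 CPM per kb. TTN, NEB and MYH7 sit in loci of more than 1 reference gene and had 839.96 ± 284, 486 ± 132 and 1022 ± 344 CPM. Of the 35 loci that passed, 21 were highest in replicate 1 (22.3% of all loci) and 18 were lowest in replicate 3 (15.4% of all loci), and MYL3 differed from 585 CPM in replicate 1 to 124 CPM in replicate 3.

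The factors that make muscle were low beside its products, with a median of 5.62 CPM per kb over the myogenic loci that passed, against 31.6 CPM per kb for the sarcomere list. MYOG, which drives myoblasts to differentiate, had 11.9 ± 6.02 CPM, ranging from 4.901 CPM in replicate 3 to 19.6 CPM in replicate 1, with a median of 12.3 CPM, and MYMK, the fusion protein myomaker, 27.3 ± 16.3 CPM, ranging from 8.24 CPM in replicate 5 to 52.2 CPM in replicate 1, with a median of 26.6 CPM. PAX7, the satellite cell factor, had 3.74 ± 0.707 CPM and varied little, between 3.09 and 4.73 CPM. CDH15, the cadherin of satellite cells and myoblasts, had 56.3 ± 20.5 CPM, and the factor MEF2C 79.3 ± 13.8 CPM. MYOG, MYMK and CDH15 were each lower in replicates 3 and 5, the libraries with the lowest share of sarcomere genes, than in the other 4. How many of all loci do so was not counted. Of the 9 myogenic loci that passed, 6 were lowest in replicate 3 (15.4% of all loci), and 2 were highest there (16.4% of all loci). MYOG, MYMK and CDH15 therefore do not stand for the whole list.

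Cartilage genes were low in 5 blastemas and raised in 1. COL9A1, a collagen on the surface of cartilage fibrils, had 380.5 CPM in replicate 3 and 62.8, 57.5, 73.4, 71.8 and 32.01 CPM in replicates 1, 2, 4, 5 and 6, so that its mean of 113 CPM fell to 59.5 CPM without replicate 3. COL9A3 had 316 CPM in replicate 3 and at most 46.7 CPM elsewhere, and COL9A2 104 CPM and at most 22.6 CPM. The aggrecan gene ACAN reached 126 CPM in replicate 3 and 61.1 CPM in replicate 5, and lay at 23.97, 23.9, 17.4 and 16.7 CPM in the others. CNMD, chondromodulin, had 90.3 CPM in replicate 3 and at most 8.51 CPM elsewhere, EPYC 70.7 CPM and at most 12.2 CPM, and COL10A1, the collagen of hypertrophic chondrocytes, 74.9 CPM and at most 17.5 CPM. Of the 21 cartilage loci that passed, 19 were highest in replicate 3, against 16.4% of all loci. The list's share of counts was 0.0623% over the 6 libraries and 0.0425% without replicate 3.

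The cartilage factors SOX9 and RUNX2 differed less between libraries than the matrix genes COL9A1, COL9A2, COL9A3, CNMD and EPYC. That does not hold for every factor and matrix gene of the list. SOX9, the master factor of chondrocytes, had 20.04 CPM in replicate 3 and 9.18 to 11.7 CPM in the others, and exceeded SOX5 in 6 of 6 libraries by a mean log2 ratio of 2.58 ± 0.34 per kb (exact sign-flip permutation test, adjusted p = 0.0344). RUNX2, which acts in hypertrophic cartilage and bone, had 65.2 ± 17.9 CPM. MATN1 behaved differently from the list, with 0.986 and 0.389 CPM in replicates 4 and 6 and 10.4, 13.1, 14.6 and 13.4 CPM in replicates 1, 2, 3 and 5. Of the bone list, 3 loci were carried and ALPL, DLX5 and SOST had 5.35 ± 2.89, 4.89 ± 1.799 and 0.851 ± 0.435 CPM.

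Markers of further cell types were examined next. Of the epidermal list, KRT18 led with 584 ± 91.1 CPM and varied little, between 449 and 696 CPM. The locus named cytokeratin, described after its values were seen, was alike, with 671 ± 159 CPM, and simple keratins have been found in the blastema mesenchyme of newts. The defining markers of epidermis were highest in replicate 1: EPCAM had 34.9 CPM there and 4.099, 2.305, 1.63, 7.43 and 1.68 CPM in replicates 2 to 6, CDH1 11.6 CPM and 1.12, 0.146, 0.395, 1.58 and 0.598 CPM, and TP63, the factor of basal epidermis, 6.91 CPM and 0.762, 0.379, 0.345, 0.777 and 0.419 CPM. Of the 12 epidermal loci that passed, 9 were highest in replicate 1 (22.3% of all loci). The list's share, most of which is KRT18, was 0.083005% over the 6 libraries and 0.0833% without replicate 1.

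Endothelial genes were present in every library, with a median of 2.33 CPM per kb over the 16 loci. PLVAP had 65.7 ± 9.03 CPM, CLDN5 89.8 ± 16.2 CPM, CDH5, the cadherin of vessel walls, 43.9 ± 6.98 CPM and PECAM1 21.4 ± 2.04 CPM, and VWF ranged from 37.4 CPM in replicate 1 to 132 CPM in replicate 6, with a median of 57.1 CPM. Of the 13 loci of the Schwann cell and nerve list, 6 passed the count minimum (59.8% of all loci), and 6 had a mean under 1 CPM. Among those that passed, PMP22 had 84.7 ± 19.5 CPM and MBP 139 ± 22.6 CPM, both proteins of myelin. The others that passed were lower, with 46.6 and 10.4 CPM at the loci of NGFR, 11.5 CPM for CNP and 4.45 CPM for ERBB3. PMP22 ranged from 54.9 CPM in replicate 3 to 109.8 CPM in replicate 5, with a median of 88.7 CPM, and MBP ranged from 100.1 CPM in replicate 3 to 170.2 CPM in replicate 2, with a median of 142 CPM. Of the 6 Schwann cell loci that passed, 5 were lowest in replicate 3 (15.4% of all loci), and the list took 0.02996% of the counts over the 6 libraries and 0.0315% without replicate 3.

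Single red blood cell genes differed widely between blastemas. The locus named beta-globin had 1397, 3739, 2200.3, 2516, 685 and 220.1 CPM in replicates 1 to 6, and the loci named beta, major and minor, whose products the files do not give, had the same highest library, replicate 2, and the same lowest, replicate 6. ALAS2, the first enzyme of haem synthesis in red cells, had 30.3, 81.9, 59.4, 59.1, 17.6 and 9.42 CPM in replicates 1 to 6, and SLC4A1, their anion exchanger, had 15.5, 47.95, 30.7, 24.6, 7.797 and 4.55 CPM. These genes were each highest in replicate 2 and lowest in replicate 6. The rest of the list did not all follow them: GYPC, a red cell membrane protein, and SPTB, a spectrin chain of its skeleton, were lowest in replicate 3, with 16.2 and 96.9 CPM. The erythroid and thrombocyte list took its highest share in replicate 2, 0.0391%, and its lowest in replicate 3, 0.0217%, with 0.0289% in replicate 6. GATA1 had 1.68 ± 0.981 CPM.

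Transcripts of the cell cycle were present in every library. STMN1 had 202 ± 17.5 CPM, MKI67, in a locus shared with another reference gene, 117 ± 26.9 CPM, TOP2A, which untangles replicated DNA, 135 ± 40.7 CPM, and the mitotic kinase CDK1 59.6 ± 8.005 CPM. CCND1, the cyclin that answers to growth factors, had 99.7 ± 10.7 CPM. Of the 31 proliferation loci that passed, 17 were highest in replicate 6 (20.6% of all loci) and 19 lowest in replicate 1 (22.0% of all loci). TOP2A had 212 CPM in replicate 6 and 94.8 CPM in replicate 1.

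Ribosomal genes ran the other way between these libraries. Of 72 translation loci that passed, 61 were highest in replicate 1 and 57 lowest in replicate 6, where 22.3% and 22.9% of all loci stood highest and lowest. RPS15 had 1376 CPM in replicate 1 and 642 CPM in replicate 6. Chaperones, several of which fold proteins bound for the matrix, differed least of all lists, with 0.857 ± 0.04195% of the counts and a ratio of 1.15 between the highest and the lowest library, and the cytosolic chaperone HSP90AB1 had 3327 ± 291 CPM.

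Put side by side, the lists varied by library in different directions. Muscle genes took 3.29% of the counts in replicate 1 and 1.53% in replicate 3, and fibrillar collagens took 0.797% in replicate 1 and 1.64% in replicate 3. That opposition did not hold in all libraries, since in replicate 6 both lists were above their mean and in replicate 4 both were below it. Without replicate 1 muscle averaged 2.09%, and without replicate 3 fibrillar collagens averaged 1.02%. Limb patterning factors, matrix glycoproteins, collagen modifiers and metalloproteinases had the highest and lowest share in the same replicates 3 and 1 as the collagens. Myeloid and osteoclast lists were highest in replicate 5, with 0.508% and 0.445% of its counts. The scaling moved the counts of highest and lowest loci in some lists more than in others. Under library size alone 12.3% of all loci were highest and 37.4% lowest in replicate 1, and under TMM 22.3% were highest and 22% lowest in it. Of 31 proliferation loci, 24 were lowest in replicate 1 under library size alone and 19 under TMM, of 30 matrix glycoproteins 19 and 13, and of 36 limb patterning factors 21 and 16. Under library size alone, DESeq2 size factors, upper-quartile scaling and TMM over all 12 libraries, 19 cartilage loci and 14 collagen modifier loci were highest in replicate 3 and 9 osteoclast loci in replicate 5. Muscle loci highest in replicate 1 numbered 18 to 21 and translation loci 55 to 62. Schwann cell loci lowest in replicate 3 numbered 4 or 5. Of 33 myeloid loci, 18 were highest in replicate 5 and 7 in replicate 1 under library size alone, and 13 and 13 under TMM. Shares add up to the whole of a library, so that a list can be low because another is high, and this was not tested.

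**Figure D5:**
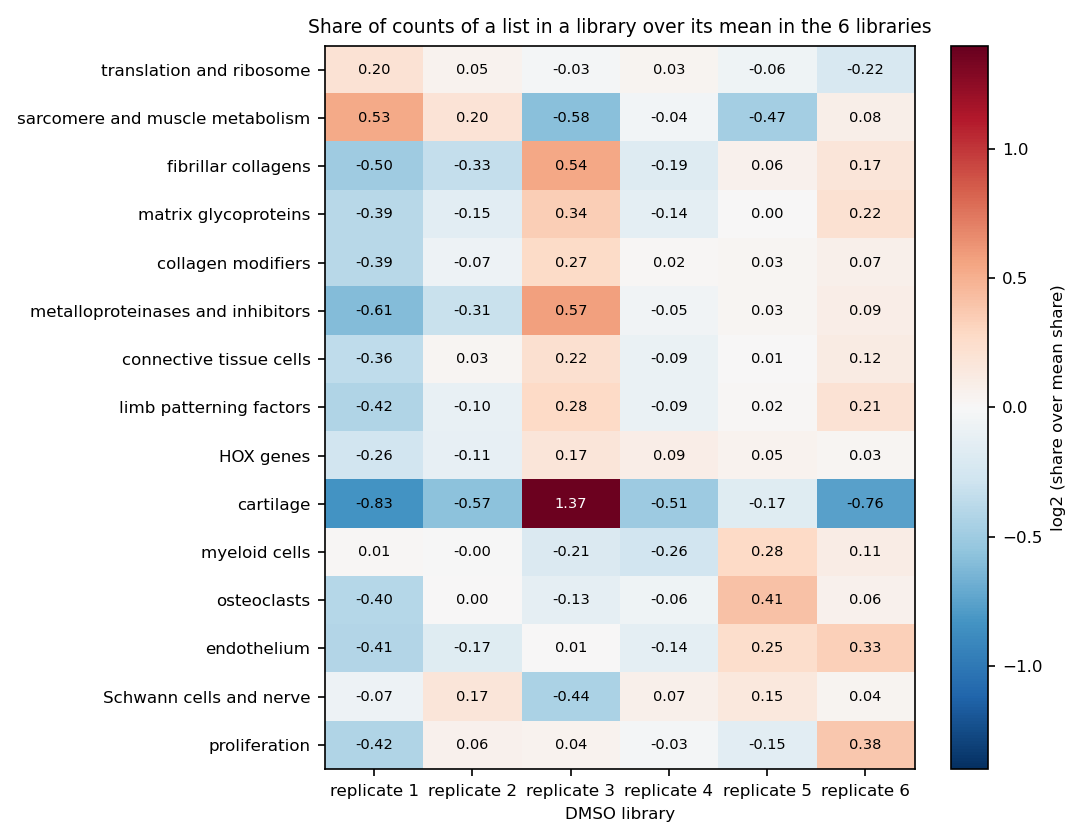
Log2 of a list's share of counts in a library over its mean share in the 6 DMSO libraries, for 15 gene lists. Replicate 3 was high in cartilage (1.37) and low in muscle (-0.58) and Schwann cell genes (-0.44), and replicate 1 was high in muscle (0.53) and low in metalloproteinases and inhibitors (-0.61).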

How the data were processed

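Right forelimb blastemas of 6 DMSO-treated axolotls were analysed, out of 12 libraries. Per the labels and the study's methods, the authors trimmed stranded paired reads (Trimmomatic 0.36), aligned them to AmexG_v3.0.0 (HISAT2 2.1.0), merged StringTie 1.3.4d assemblies and counted read pairs on exons per locus with featureCounts of Subread 1.6.2. The deposited values are raw counts, with strand used, so reads of antisense loci are separated, while loci of more than 1 reference gene (309) and near-identical copies are not. A deposited edgeR table of scaled values and the authors' comparison columns were not used.

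Here TMM factors were computed in edgeR 4.0.16 (R 4.3.3) from the 6 DMSO libraries over loci with at least 10 counts in all 6, and CPM and CPM per kb of exon (union of exons) were derived in Python 3.11.15. Shares are percent of a library's counts. Gene names came from the reference names in the assembly, and 485 of 733 listed symbols were counted as matched, with 1 symbol per locus in a list. Gene pairs were compared within each library as log2 ratios of CPM per kb (prior 0.1 CPM) by an exact two-sided sign-flip permutation test, with Benjamini-Hochberg adjustment over 11 pairs. The p covers variation between the 6 blastemas only. Errors of exon length, naming or read assignment do not enter it. Of 25 listed pairs, 12 had both genes carried and 1 of these did not pass the count minimum. Levels after TMM scaling were checked on simulated counts drawn from the same composition for every library. Differences in composition between libraries were therefore not part of that check. The sign-flip test was run on short made-up sets of values only, not on simulated counts. Members and lists were chosen with earlier results of these data known. Genes named were the 20 highest loci by CPM and by CPM per kb, the 5 highest members of each list per kb, members of the HOX, patterning, myogenic, myeloid, osteoclast and cartilage lists, and pair members. Other genes, among them FAP, SCX, TNMD, THY1, TCF21, PDGFRA, PDGFRB, HAS1, PTN, BMP7, PTCH1, the further signals, slow muscle genes and loci with names of 1 word outside the top lists, were named after their values were seen. Each library is a separate animal. A few genes are not reported here and were left out of the lists. No comparison with Am580 was made, and no sequence was printed, since none of this build was used here.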

Additional observations from a re-analysis of the deposited data

Results flagged for a closer look

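In 247 sets of 6 library values, the highest or lowest library lay farther from its nearest neighbour than Dixon's critical value of 0.625 of the range allows in 37. The rate of 1 in 20 for which this value is set is no measure here. Some loci were named after their values were seen, and loci of a list can vary together. The sets were 218 loci with a mean of 1 CPM or more (those the text gives values for, the highest of the table and the 5 highest per kb of each gene list), the gene lists and the 1-word names. Loci outside these were not examined in this way, so the tally does not cover every locus. Of the 37, 17 were in replicate 3, 12 in replicate 1, 3 in replicate 5, 3 in replicate 6, 2 in replicate 2 and 0 in replicate 4.

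Replicate 3 stood apart in the skeleton and matrix. Cartilage genes took 0.161% of its counts, and the single loci were COL9A1 at 380.5 CPM, COL9A3 at 316 CPM, COL9A2 at 104 CPM, CNMD at 90.3 CPM, COL10A1 at 74.9 CPM, EPYC at 70.7 CPM, the link protein HAPLN3 at 67.8 CPM, SOX9 at 20.04 CPM and DLX5 at 8.34 CPM. In the same library MMP14 had 2362 CPM, the locus named collagenase (MSTRG.15285) 7259 CPM, SDC2 539.6 CPM, the small proteoglycan OGN 119.5 CPM, the tendon gene TNMD 15.1 CPM, HOXA13 9.83 CPM and the locus with HOXD10 31.1 CPM. From which tissue the cartilage transcripts came, and whether the plane of dissection differed in this blastema, was not tested.

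Replicate 1 stood apart in the loci named keratin, with 0.121% of its counts and 641.5 CPM at the highest of them (MSTRG.17852), and in LAMB3, a laminin chain of the epidermal basement membrane, with 50.6 CPM. The epithelial genes EPCAM, CDH1 and TP63 stood apart in it as well, with 34.9, 11.6 and 6.91 CPM. ERBB3, the neuregulin receptor known from Schwann cells and also made by epithelia, had 8.29 CPM in it. It was also highest in RPL31 (979.8 CPM), EEF2 (5755 CPM), PKM (2938 CPM), HSP90AB1 (3877 CPM) and the locus named glyceraldehyde (6471 CPM).

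In replicate 5 ITGB2 reached 687 CPM, ACP5 1914 CPM and DCSTAMP 156 CPM. In replicate 6 the proliferation genes TOP2A and MKI67 reached 212 and 170.4 CPM, and LDHB, a lactate dehydrogenase chain, was low with 124 CPM. In replicate 2 ACTA2, the actin of smooth muscle, had 147 CPM and PDIA3, a disulfide isomerase, was low with 577 CPM.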

How the results depend on the processing

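No paired analysis was possible because only libraries of 1 treatment group enter the results. The number of loci at 100 CPM or more lay between 1475 and 1525 over the other scalings and with each library left out, and that at 1000 CPM or more between 136 and 151. Of the 20 highest loci, 18 to 20 were shared by CPM per kb and 19 to 20 by CPM. All 5929 recomputed mean CPM moved by less than 1 SD. Leaving out 1 of 6 libraries cannot move a mean or a mean share by 1 SD, so for those settings this limit decides nothing. Cartilage genes fell from 0.0623% to 0.0425% of the counts without replicate 3 and stayed within it. With the counts of loci that hold a reference transcript as denominator, matrix glycoproteins took 1.464%, myeloid genes 0.516%, osteoclast genes 0.412%, limb patterning factors 0.121% and HOX genes 0.0189%, each above the share of all counts by the construction of that denominator, and HOX genes took 0.00239% without loci of more than 1 reference gene, since the locus with HOXA11 and that with HOXD10 then drop out. Among the other lists 16 recomputed shares moved by more than 1 SD, all but 1 with that denominator, the exception being translation genes at 4.70% without loci of more than 1 reference gene. All recomputed pair ratios kept their direction, and with the longest transcript as length SHOX2 over SHOX passed the threshold, at -1.33 on the log2 scale (exact sign-flip permutation test, p = 0.03125, adjusted p = 0.03125). The ratio of HOXA13 to the locus with HOXA11 was -2.58 with that length, and MSX1 over MSX2 -3.57 with a prior of 1 CPM. With 1 library left out the smallest possible p is 0.0625, so those ratios carry no test. Without replicate 1 muscle genes took 2.09% of the counts, against 2.29% with it, and fibrillar collagens 1.19%, against 1.13%. Depth limits statements on loci under about 0.109 CPM, and 485 of the 733 listed symbols were counted as carried, with 1 symbol per locus in a list.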

Other observations

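In several genes, noticed after the values were seen, replicates 1 and 5 held the 2 highest or the 2 lowest values. IL1B at its higher locus had 164 and 86.2 CPM in them, and 57.1, 9.86, 22.6 and 24.3 CPM in replicates 2, 3, 4 and 6. CSF3R had 139 and 124 CPM, against 88.2, 34.7, 20.1 and 89.4 CPM. The glucose transporter SLC2A1 had 166 and 185 CPM, against 57.1, 57.6, 21.5 and 46.7 CPM, and the syndecan SDC4 297 and 281 CPM, against 182, 121, 123 and 125 CPM. FAP ran the other way, as given in the report. The genes were picked from values already seen, and the share of all loci that part these 2 blastemas was not counted. No trait shared by the 2 blastemas is read from them.

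The unnamed 16086-base stretch that held the locus with the highest CPM took more of the counts than all fibrillar and other named collagens of the lists together, at 2.14 to 3.05% on its minus strand. These lists do not hold all collagen reads. COL1A1 and COL1A2 are carried by no name, and the loci named collagen are in neither list. The latter took 0.778% of the counts on average and 1.04% in replicate 3. What it encodes was not analysed here. The loci named hypothetical accounted for 13 of the 500 highest loci, and 78 of these 500 held no reference transcript.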
